A study of Rattus norvegicus with 12 samples.

Results

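The cells beneath the intestinal epithelium were followed through 40 genes in scrapings of the duodenal mucosa of rats. The genes were chosen by name: 22 of fibroblasts and their matrix, 9 of smooth muscle and 9 of endothelium. A gene was measured where the platform annotation gave a probe its symbol, and 31 of the 40 were, against 13337 named genes on the array. These are 19 matrix genes, 6 smooth muscle genes and 6 endothelial genes, each with 1 probe. The annotation used here names no probe for Col4a2, Col6a3 and Pdgfrb, for Acta2, Myh11 and Synm, or for Pecam1, Kdr and Eng, so several defining markers of muscle, vessels and perivascular cells were not read.

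The mucosa of the small intestine is a sheet of epithelium on a loose connective tissue, the lamina propria. Fibroblasts there secrete the collagens and proteoglycans of the matrix, capillaries and lymph vessels run through each villus, and thin strands of smooth muscle rise from the muscularis mucosae, a muscle sheet at the base of the mucosa. A scraping aims at the epithelium and takes an uncontrolled depth of these layers with it, so their transcripts report both what the layers hold and how much of them was taken. In such bulk samples, fewer cells of a type and less RNA per cell cannot be told apart.

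The swimming group was 6 female Sprague Dawley rats, labelled 9 weeks old, that were trained for 1 week until able to swim for 1 hour without a break and swam on 5 days per week for 2 weeks. The control group was 6 female Sprague Dawley rats of the same age that stayed sedentary in a pool for 2 weeks. The water was held between 30 and 32 °C for both. RNA came from cells scraped with a cold glass slide from a duodenal segment of 10 cm, and each array read 1 sample on 22523 probes. All levels below are log2 intensities after background correction and normalization, and every difference is swimming minus control on that scale. Levels of different genes come from different probes and are not compared with each other.

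Some arrays stood apart or were too alike. Swimming 4 and swimming 6, and likewise control 4 and control 6, differed by less over bright probes than over dim ones, which carry little but noise, so each pair was averaged and each group has n = 5 samples. Swimming 3 and control 3 were the most alike of all pairs although their labels differ, and both were kept. Their log2 differences had a spread of 0.078 over bright probes, against 0.12 for control 4 and control 6 and 0.16 for swimming 4 and swimming 6. Whether swimming 3 and control 3 read the same sample was not tested. Swimming 5 went against its label as duodenal mucosa. The mean of 8 absorptive enterocyte markers was 8.18 there, and 12.75 to 13.40 in the other arrays. Alpi, the brush border alkaline phosphatase, read 5.998 there, against 14.69 to 15.04 in the other 11 arrays, and Gata4, a transcription factor active in duodenum and jejunum, stood at 5.69, against 10.16 to 10.77. Car1, a carbonic anhydrase of the colon, read 14.94 there, against 6.71 to 8.87, and Hoxa7 read 10.76, against 5.72 to 6.17. The library labelled swimming 5 thus carried genes of the large intestine in place of duodenal ones, and several results that rest on it are given without it as well. Every difference given without such a second value includes swimming 5, among them those of Lox, Mmp9, Aqp1 and the enterocyte and red cell markers. Markers of the exocrine pancreas, which lies against the duodenum, averaged 9.96 in swimming 2, 9.09 in swimming 3 and 9.10 in control 3, and 6.39 to 7.43 in the other arrays. Raw medians of the arrays lay between 62.7 and 88.8 intensity units, and epithelial markers averaged 13.16 to 13.59 in every sample. The number of arrays limits the precision of every value.

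The stromal and muscle genes were set apart mainly by 2 arrays, one from each group. Averaged over the 19 matrix genes, swimming 1 read 7.72 and control 2 read 7.73. The other swimming arrays lay between 7.18 and 7.28, and the other control arrays between 6.71 and 7.22. Averaged over the 6 smooth muscle genes, swimming 1 and control 2 each read 8.03, while the other arrays lay between 7.18 and 7.52. The 6 endothelial genes averaged 6.61 in swimming 1, 6.61 in swimming 5 and 6.57 in control 2, with the other arrays between 6.26 and 6.51. The same pair of arrays led for matrix and muscle under each of the 5 other scalings tried.

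**Figure D1:**
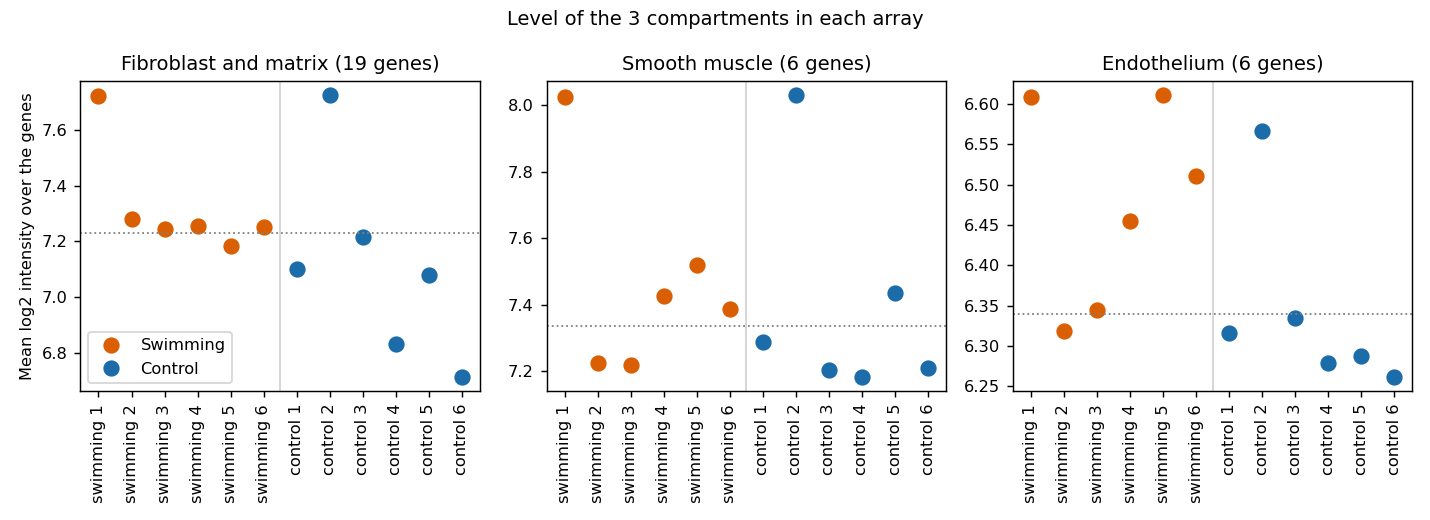
Mean log2 intensity of the measured genes of each compartment in each array, swimming arrays in orange on the left and control arrays in blue on the right, with a dotted line at the median of the 12 arrays. Swimming 1 and control 2 stand above the other arrays for matrix (7.72 and 7.73) and for smooth muscle (8.03 each), and swimming 5 joins them for endothelium (6.61).

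This pattern held gene by gene. The highest of the 12 arrays was swimming 1 for 10 members, against 5.39% of all probes, and control 2 for 11 members, against 7.57% of all probes. Together that was 21 of 31 members, against 13% of all probes. By compartment that was 15 of 19 matrix genes, 4 of 6 smooth muscle genes and 2 of 6 endothelial genes. Swimming 5 was highest for 3 members, against 16.9% of all probes. At the other end, control 4 or control 6 was the lowest array for 13 members, 10 of them matrix genes, against 16% of all probes. In control 6, 0 of the 19 matrix genes lay above their own median over the arrays, while in swimming 1 16 of them did and in control 2 18 of them did.

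**Figure D2:**
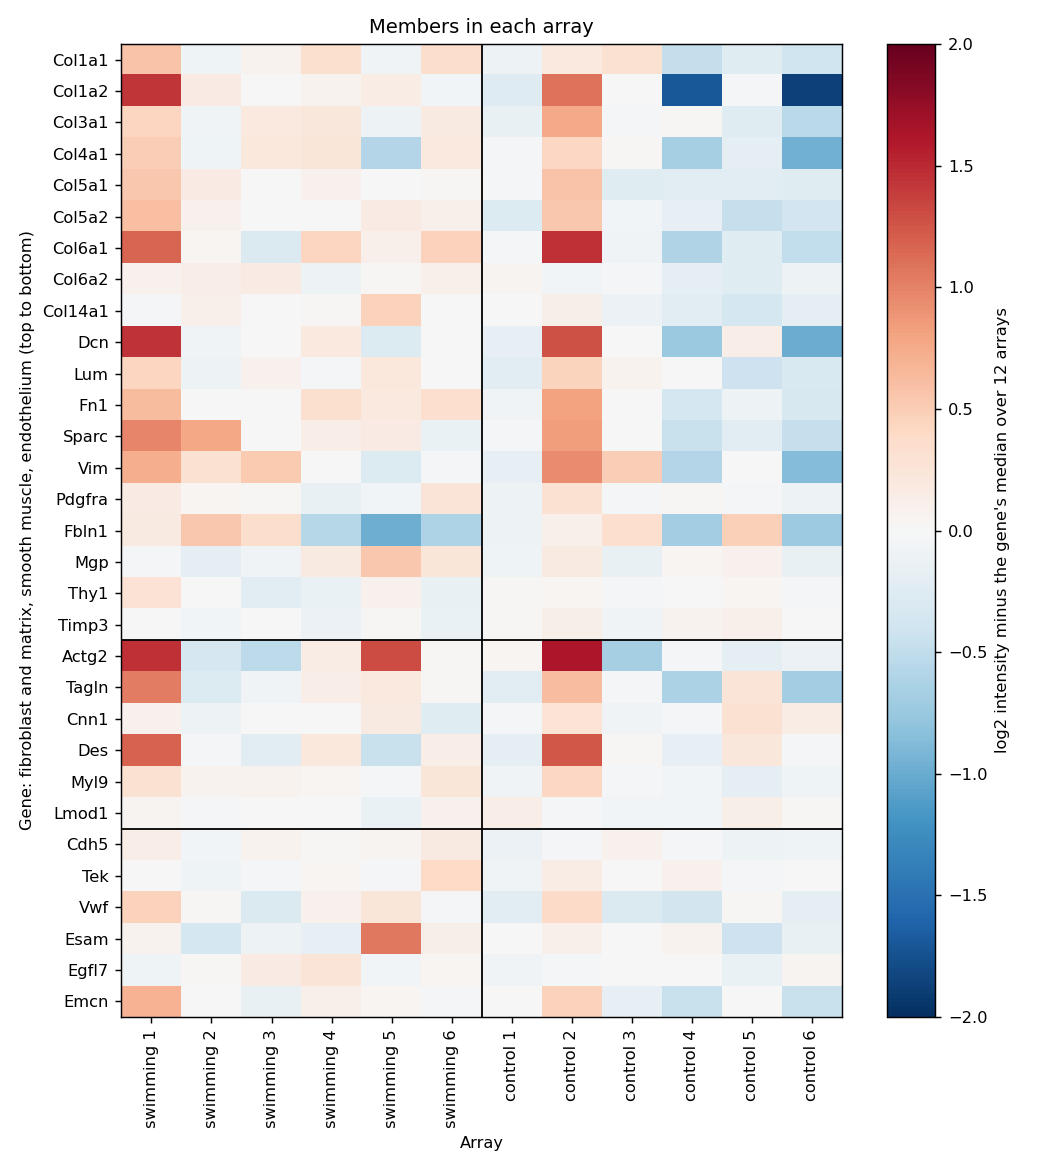
Each of the 31 measured genes (rows) in each array (columns, swimming left of control), as log2 intensity minus the gene's median over the 12 arrays; red is above and blue below that median, and lines part matrix, smooth muscle and endothelium. The columns of swimming 1 and control 2 are red through most of the matrix and muscle rows, and those of control 4 and control 6 are blue through most of the matrix rows.

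Swimming 1 and control 2 were also alike beyond these genes. After the 3 near-identical pairs they were the next most alike arrays, with a spread of log2 differences of 0.22 over bright probes against 0.16 over dim probes, and 51 bright probes apart by more than 1 log2. Markers of other deep layers were read beside them. Of 14 measured markers of enteric neurons and glia, 9 were dimmer than the median probe. The mean of the 14 ranged from 6.28 to 6.42 in swimming samples and from 6.28 to 6.42 in control samples. Swimming 1 and control 2 were the upper ends, though the single array swimming 4 read 6.44. Over the 5 brighter markers, the mean deviation from each gene's median was 0.12 in swimming 1 and 0.19 in control 2. It was at most 0.069 in the other arrays. All 3 measured markers of interstitial cells of Cajal, the pacemakers of gut muscle, were dimmer than the median probe. So were 4 of 6 pericyte markers. Swimming 1 or control 2 was the highest array for 5 of the 14 nerve and glia markers, for 2 of the 6 pericyte markers and for 9 of 20 other matrix genes. The count was 9 of 24 for other endothelial genes and 5 of 13 for immune markers, whose cells were not assigned to a layer here. It was 4 of 21 for further genes of smooth muscle contraction, where swimming 5 was highest for 7. It was 0 of 3 for Cajal markers and 0 of 10 for angiogenic ligands and oxygen sensors. Over all probes the share was 13%. The part of scraping depth in the pattern was not tested.

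Within the matrix compartment the brighter genes mostly moved as a block from sample to sample. Over the 10 samples, the median correlation between pairs of the 14 matrix genes brighter than the median probe was 0.77, and 90 of the 91 pairs were above 0. Over all pairs of brighter probes the median was -0.00016. Between smooth muscle and matrix genes the median was 0.65 over 84 pairs, and between brighter endothelial and matrix genes it was 0.66 over 42 pairs. Within smooth muscle it was 0.46 over 15 pairs. With swimming 5 left out and swimming 3 and control 3 averaged, which leaves 8 samples, the matrix value was 0.81, the muscle to matrix value 0.72 and the endothelium to matrix value 0.74. These correlations are descriptions, since all points share the same arrays and the same high samples.

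The members that followed the matrix level most closely, by correlation with the mean of the other brighter matrix genes over the 10 samples, were Dcn at 0.95, Col1a2 at 0.92, Fn1 at 0.91 and Emcn at 0.91. Dcn encodes decorin, a small proteoglycan that binds collagen fibrils, Fn1 encodes fibronectin and Emcn encodes endomucin, a glycoprotein of venous and capillary endothelium. Several muscle genes followed it too, with Myl9 at 0.88, Tagln at 0.85 and Des at 0.84. Lower values were those of Fbln1 at 0.31, Cnn1 at 0.16, Timp3 at 0.049, Lmod1 at 0.027, Esam at 0.011 and Egfl7 at -0.094. The other dim members were also low, with Thy1 at 0.40, Cdh5 at 0.39, Col6a2 at 0.35, Tek at 0.27, Col14a1 at 0.23 and Mgp at 0.027. Over the 8 samples without swimming 5, with swimming 3 and control 3 averaged, Fbln1 stood at 0.33, Cnn1 at 0.22, Timp3 at 0.062, Lmod1 at -0.13, Esam at 0.39 and Egfl7 at -0.15. Over the same 8 samples Thy1 stood at 0.51, Cdh5 at 0.47, Col6a2 at 0.41, Tek at 0.25, Col14a1 at 0.57 and Mgp at 0.27.

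Among the fibrillar collagens, Col1a2 varied most from array to array. It encodes the second chain of type I collagen, the main fibre of connective tissue. Col1a2 read 11.01, 9.74, 9.57, 9.66, 9.74 and 9.53 in swimming 1 to 6, against 9.32, 10.67, 9.60, 7.89, 9.54 and 7.71 in control 1 to 6. Swimming 1 and control 2 were high, control 4 and control 6 were low, and the groups overlapped. Its mean was 9.93 ± 0.61 in swimming rats and 9.39 ± 1.03 in control rats (SD, n = 5 each), a difference of 0.54 with a 95% interval from -0.52 to 1.60 and an adjusted p of 0.986 (limma). The difference was 0.27 without swimming 1, 0.15 without control 4 and control 6, and 0.87 without control 2. Between arrays of the control group alone, control 2 stood 7.33-fold above the mean of control 4 and control 6.

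For 15 measured members, 16 promoters were in the RefSeq table for rat assembly GRCr8, 250 bases before to 50 after the annotated gene start. Col1a2 and Col4a1 are shown as matrix genes that followed the matrix level, and Actg2 as the muscle gene with the widest range. Capitals mark the CCAAT box, read as CCAAT or, on the other strand, ATTGG, the site of the factor NF-Y.
Col1a2 (chr4:33518307-33518606, plus strand): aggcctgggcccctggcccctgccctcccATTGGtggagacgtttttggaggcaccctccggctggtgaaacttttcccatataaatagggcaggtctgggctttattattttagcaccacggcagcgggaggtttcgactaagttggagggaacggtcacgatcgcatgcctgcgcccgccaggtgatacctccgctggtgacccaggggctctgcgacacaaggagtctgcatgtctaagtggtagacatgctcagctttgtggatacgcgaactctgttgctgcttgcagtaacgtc
Col4a1 (chr16:84885347-84885646, plus strand): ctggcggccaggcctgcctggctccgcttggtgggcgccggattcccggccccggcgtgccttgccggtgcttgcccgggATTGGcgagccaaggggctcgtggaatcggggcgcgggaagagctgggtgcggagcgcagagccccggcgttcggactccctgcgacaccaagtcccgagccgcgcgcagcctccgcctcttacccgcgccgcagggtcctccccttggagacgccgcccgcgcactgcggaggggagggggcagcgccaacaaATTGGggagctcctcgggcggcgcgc
Actg2 (chr4:117593990-117594289, minus strand): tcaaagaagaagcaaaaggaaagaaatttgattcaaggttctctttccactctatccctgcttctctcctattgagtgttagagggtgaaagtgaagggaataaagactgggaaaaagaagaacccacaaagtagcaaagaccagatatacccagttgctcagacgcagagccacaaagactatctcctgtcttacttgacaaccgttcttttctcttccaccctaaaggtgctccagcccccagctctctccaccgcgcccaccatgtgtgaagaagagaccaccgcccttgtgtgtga

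The box lies 221 bases upstream of the annotated start of Col1a2, and 170 bases upstream and 25 bases downstream of that of Col4a1. In Col1a2 the bases from the annotated start open with atg, the letters of a start codon. The annotated start thus need not be where transcription begins, and distances from the transcription start were not tested. It was present in 8 of the 16 member promoters, 50%, and in 37.5% of all 33469 promoters of the table. The CArG box, the site of serum response factor, was present in 0 of the 16 and in 1.64% of all promoters, with both strands searched. No match says only that these letters are not in this window, which need not hold the whole promoter. Col4a1 and Col4a2, the chains of basement membrane collagen, start head to head on chromosome 16 with 77 bases between their annotated starts, and only Col4a1 was measured.

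The other collagens showed smaller ranges. Col5a2 encodes a chain of type V collagen, which sets the diameter of type I fibrils. Col5a2 read 7.07, 6.55, 6.48, 6.46, 6.63 and 6.57 in swimming 1 to 6, against 6.20, 7.01, 6.42, 6.31, 6.02 and 6.08 in control 1 to 6. Every swimming array lay above every control array but control 2, and the difference was 0.28 with a 95% interval from -0.13 to 0.69 and an adjusted p of 0.986 (limma). It was 0.18 without swimming 1 and 0.44 without control 2. Col6a1, a chain of the beaded filaments of type VI collagen, differed by 0.18 and was highest in control 2 at 8.89. Col1a1 differed by 0.22, Col3a1 by 0.11, Col4a1 by 0.17 and Col5a1 by 0.19, and each of these intervals included 0.

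Col6a2 was the single member with an unadjusted p under 0.05. It encodes a second chain of type VI collagen and was dimmer than the median probe. Col6a2 read 6.30, 6.35, 6.38, 6.11, 6.24 and 6.31 in swimming 1 to 6, against 6.26, 6.15, 6.18, 6.04, 5.96 and 6.11 in control 1 to 6. The groups overlapped, since control 1 lay above swimming 4 and swimming 5, and the difference was 0.17 with a 95% interval from 0.022 to 0.32, an unadjusted p of 0.028 and an adjusted p of 0.986 (limma). Col14a1, a collagen on the surface of fibrils and also dim, read 6.26, 6.40, 6.30, 6.33, 6.76 and 6.31 in swimming 1 to 6, against 6.30, 6.41, 6.18, 6.08, 5.96 and 6.12 in control 1 to 6. Its difference of 0.22 had a 95% interval from -0.035 to 0.47, and swimming 5 was its highest array. The difference was 0.13 without swimming 5.

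Vim encodes vimentin, the intermediate filament of fibroblasts, endothelium and leukocytes. Vim read 10.30, 9.88, 10.10, 9.58, 9.29 and 9.55 in swimming 1 to 6, against 9.41, 10.52, 10.07, 8.98, 9.57 and 8.70 in control 1 to 6. Control 2 was the highest array and control 6 the lowest, so the swimming arrays lay inside the range of the controls, with a difference of 0.15 and a 95% interval from -0.53 to 0.82. The difference was -0.062 without control 4 and control 6, and it was 0.28 without swimming 5. Fbln1 encodes fibulin 1, a glycoprotein of matrix and basement membranes. Fbln1 read 10.66, 11.01, 10.82, 9.90, 9.49 and 9.85 in swimming 1 to 6, against 10.38, 10.57, 10.81, 9.77, 10.94 and 9.75 in control 1 to 6. It was highest in swimming 2 and lowest in swimming 5, apart from the order of the other matrix genes, and its difference was -0.12 with a 95% interval from -0.84 to 0.59. Its sign turned without swimming 5, to 0.097, and with swimming 5, swimming 3 and control 3 all left out, to 0.10. It was 0.0015 without swimming 4 and swimming 6.

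The remaining matrix genes were given by their ranges. Dcn lay between 7.16 and 8.89 in swimming arrays and between 6.44 and 8.71 in control arrays, with a difference of 0.16. Sparc, which encodes a collagen-binding glycoprotein, lay between 6.89 and 7.995 in swimming arrays and between 6.56 and 7.86 in control arrays, with a difference of 0.35 and a 95% interval from -0.25 to 0.95. Fn1 lay between 6.45 and 7.10 in swimming arrays and between 6.12 and 7.26 in control arrays, with a difference of 0.17. For all 3 the lowest array was control 6 or control 4. Lum, which encodes lumican, a relative of decorin, differed by 0.18, and Pdgfra, the PDGF receptor that marks fibroblasts, by 0.022. The dim genes Mgp, an inhibitor of calcification, Thy1, a surface protein of fibroblasts and nerve cells, and Timp3, an inhibitor of matrix proteases, by turn gave differences of 0.095, -0.0065 and -0.079. Each of these intervals included 0. Mgp was highest in swimming 5, and its sign turned without that array, to -0.016.

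**Figure D3:**
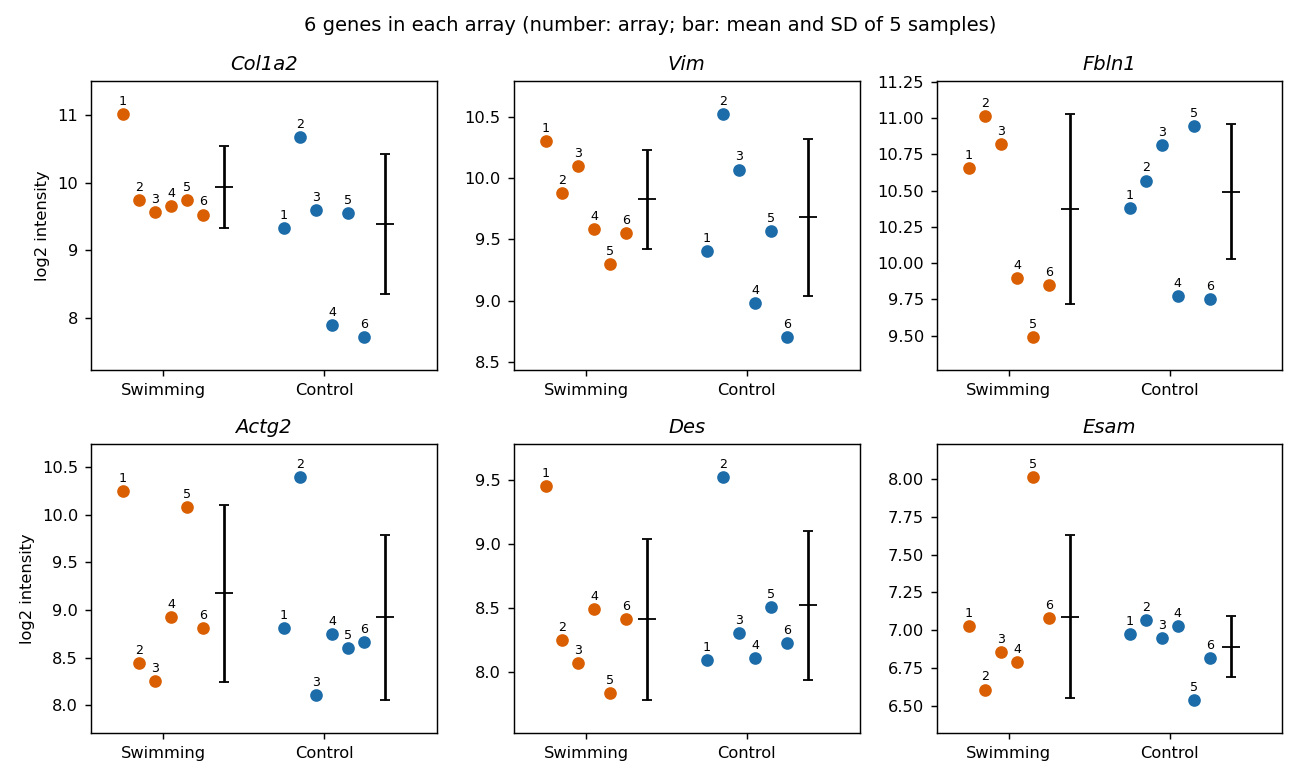
Log2 intensity of Col1a2, Vim, Fbln1, Actg2, Des and Esam in each array, swimming left of control, with the array's number above each point and the mean and SD of the 5 samples beside each group. The groups overlap in every panel, with swimming 1 and control 2 high for Col1a2, Actg2 and Des, and swimming 5 high for Actg2 (10.08) and Esam (8.01) but lowest for Des (7.84).

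The smooth muscle genes encode the contractile machinery. Actg2, the gamma actin of gut smooth muscle, read 10.25, 8.44, 8.25, 8.92, 10.08 and 8.81 in swimming 1 to 6, against 8.81, 10.40, 8.11, 8.75, 8.60 and 8.66 in control 1 to 6. Swimming 1, swimming 5 and control 2 were high and the groups overlapped. The difference was 0.25 with a 95% interval from -0.87 to 1.38. It was 0.025 without swimming 5, -0.016 without swimming 1 and 0.62 without control 2. Des, which encodes desmin, the intermediate filament of muscle, read 9.45, 8.25, 8.07, 8.49, 7.84 and 8.41 in swimming 1 to 6, against 8.10, 9.52, 8.31, 8.12, 8.51 and 8.23 in control 1 to 6. Des shared the high arrays swimming 1 and control 2 with Actg2 but was lowest in swimming 5, and its difference was -0.11 with a 95% interval from -0.87 to 0.65. Its sign turned without swimming 5, to 0.035, without control 2, to 0.14, and with swimming 5, swimming 3 and control 3 all left out, to 0.14.

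Tagln encodes transgelin, an actin-binding protein of smooth muscle. Tagln read 8.36, 7.06, 7.26, 7.46, 7.53 and 7.36 in swimming 1 to 6, against 7.13, 7.95, 7.31, 6.70, 7.59 and 6.64 in control 1 to 6. As with Col1a2, control 4 and control 6 were the lowest arrays, and the difference was 0.20 with a 95% interval from -0.42 to 0.82. The difference was -0.010 without swimming 1. Myl9, the regulatory light chain of myosin, read 6.64, 6.41, 6.41, 6.37, 6.31 and 6.59 in swimming 1 to 6, against 6.26, 6.75, 6.30, 6.28, 6.16 and 6.25 in control 1 to 6. Control 2 was its highest array, and the difference was 0.10 with a 95% interval from -0.15 to 0.35.

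Cnn1 and Lmod1 showed little of the array pattern. Cnn1 encodes calponin, which restrains the myosin motor. Cnn1 read 6.75, 6.56, 6.65, 6.67, 6.84 and 6.41 in swimming 1 to 6, against 6.64, 6.93, 6.58, 6.64, 6.96 and 6.81 in control 1 to 6, a difference of -0.10 with a 95% interval from -0.31 to 0.11. Lmod1 encodes leiomodin, which starts actin filaments. Lmod1 read 6.71, 6.62, 6.67, 6.64, 6.52 and 6.74 in swimming 1 to 6, against 6.78, 6.64, 6.61, 6.60, 6.78 and 6.67 in control 1 to 6, a difference of -0.046 with a 95% interval from -0.18 to 0.088. For both genes the groups overlapped, and neither swimming 1 nor control 2 was the highest array.

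Of the endothelial genes, 3 were brighter than the median probe. Esam, an adhesion molecule of endothelial junctions, read 7.03, 6.61, 6.86, 6.79, 8.01 and 7.08 in swimming 1 to 6, against 6.97, 7.07, 6.95, 7.03, 6.54 and 6.82 in control 1 to 6. Swimming 5 stood above all others, and the difference of 0.20 was -0.034 without it. Emcn read 7.50, 6.80, 6.66, 6.90, 6.83 and 6.78 in swimming 1 to 6, against 6.81, 7.26, 6.63, 6.35, 6.80 and 6.35 in control 1 to 6. As for the matrix mean, swimming 1 and control 2 were high and control 4 and control 6 low, while the order of the other arrays differed. The difference of Emcn was 0.15 with a 95% interval from -0.27 to 0.57. The difference was 0.011 without swimming 1.

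Vwf encodes von Willebrand factor, the clotting protein stored in endothelium. Vwf read 6.93, 6.49, 6.18, 6.55, 6.71 and 6.44 in swimming 1 to 6, against 6.23, 6.84, 6.18, 6.097, 6.49 and 6.27 in control 1 to 6, a difference of 0.17 with a 95% interval from -0.19 to 0.54. Swimming 1 and control 2 were again the high arrays. Cdh5, the cadherin of endothelial junctions, read 6.103, 5.91, 6.05, 6.0, 6.03 and 6.16 in swimming 1 to 6, against 5.85, 5.93, 6.05, 5.94, 5.87 and 5.89 in control 1 to 6, a difference of 0.11 with a 95% interval from -0.020 to 0.24. Egfl7, a factor that endothelium secretes, read 6.02, 6.12, 6.27, 6.36, 6.05 and 6.14 in swimming 1 to 6, against 6.03, 6.07, 6.11, 6.095, 5.97 and 6.15 in control 1 to 6, a difference of 0.081 with a 95% interval from -0.063 to 0.22. Cdh5, Egfl7 and Tek, the angiopoietin receptor, were dimmer than the median probe, so a difference there understates any change in RNA. Tek differed by -0.0063, with a 95% interval from -0.16 to 0.15, and by 0.0080 without swimming 5.

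Over all members, swimming and control rats did not separate. The limma test with Benjamini-Hochberg adjustment over all probes called 0 of the 31 members and 0% of the 22523 probes, with a smallest adjusted p of 0.986. At an unadjusted p under 0.05 there was 1 member of 31, against 2.8% of all probes. It was higher in swimming rats, as were 1.23% of all probes at that p, and 0 members were lower, against 1.56% of all probes. In 0 members did all swimming samples lie above all control samples or below them, against 0.262% of probes above and 0.311% below. In 26 of 31 members the difference was smaller than the SD of the control samples, against 80.8% of all probes.

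The differences leaned upward. The swimming mean was the higher one in 24 of 31 members, against 49.7% of all probes, and the median difference was 0.16, against -0.0010 over all probes. Matrix genes were higher in 16 of 19 with a median of 0.17, smooth muscle genes in 3 of 6 with a median of 0.028, and endothelial genes in 5 of 6 with a median of 0.13. Members that move together from sample to sample are not separate votes for a direction. Markers of other tissue differed beside them: 17 of 17 pancreas markers were higher in swimming rats, with a median difference of 0.93. The Amy2a3 probe counts here under both Amy2 and Amy2a3. For 16 of the 17 the difference was below the SD of the control samples. Of 8 enterocyte markers 0 were higher, with a median of -0.56, and swimming 5 was the lowest array for all 8. The enterocyte mean was 8.18 there, 13.035 to 13.40 in the other swimming arrays and 12.75 to 13.35 in control arrays. The part of pancreas and enterocyte markers in the direction of the members was not tested. Single samples set the size: the matrix median was 0.064 without swimming 1, 0.068 without control 4 and control 6, and 0.30 without control 2. The muscle median was -0.039 without swimming 1, -0.0098 without control 3, -0.013 without control 4 and control 6, and 0.17 without control 2. Without swimming 1 the swimming mean was higher in 1 of 6 muscle genes. The endothelial median was 0.087 without swimming 1. With swimming 5, swimming 3 and control 3 all left out, 26 of 31 members were higher and the medians were 0.24 for matrix, 0.099 for muscle and 0.11 for endothelium.

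**Figure D4:**
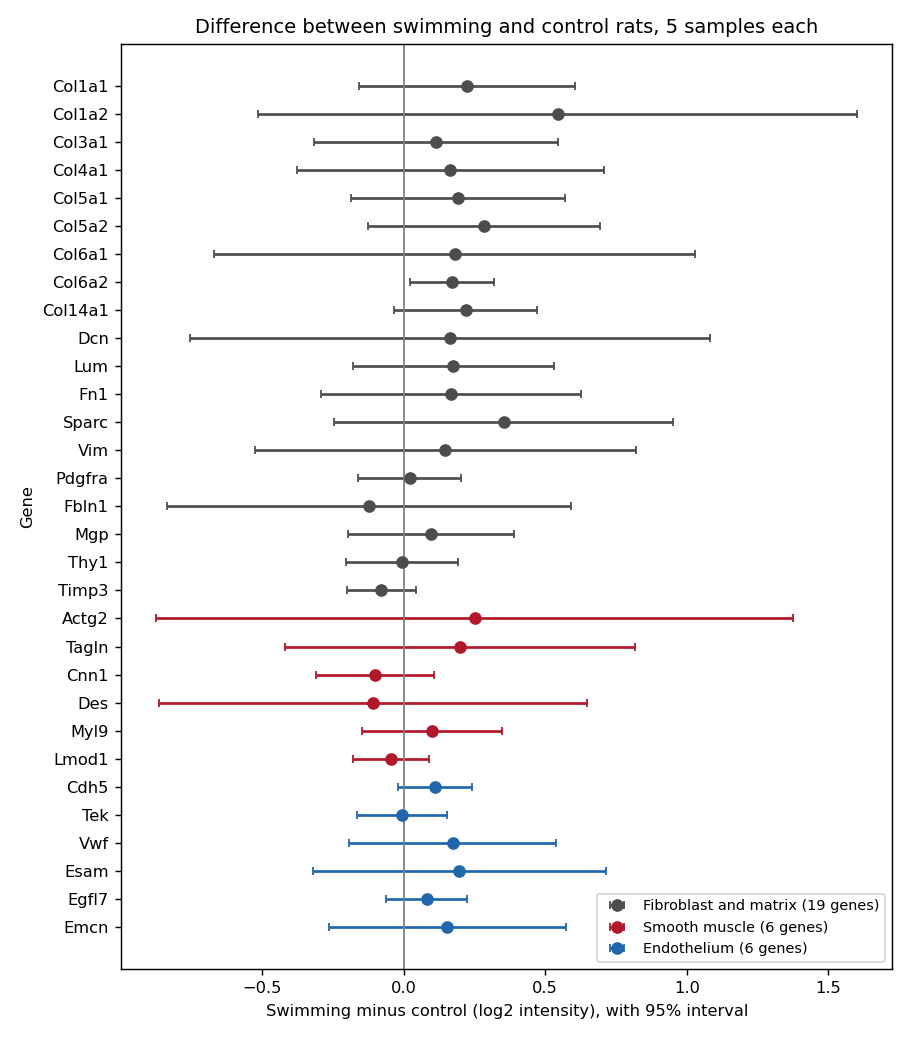
Difference between swimming and control rats in log2 intensity for each measured gene, with its 95% interval from limma on 5 samples per group (x axis), for matrix genes in grey, muscle genes in red and endothelial genes in blue. Most points lie right of 0, as 24 of 31 differences were positive, and the interval of Col6a2 (0.022 to 0.32) is the single one that leaves out 0.

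As compartment means, the matrix genes averaged 7.34 ± 0.22 in swimming rats and 7.18 ± 0.35 in control rats (SD, n = 5 each). The smooth muscle genes averaged 7.48 ± 0.33 in swimming rats and 7.43 ± 0.35 in control rats. The endothelial genes averaged 6.47 ± 0.14 in swimming rats and 6.35 ± 0.12 in control rats. The range between samples was 6.04 times the group difference for matrix, 17.1 times for muscle and 2.89 times for endothelium. The members varied more between samples than most probes, with a median SD over the samples of 0.30, against 0.14 over all probes and 0.25 over the brighter ones.

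Other genes of the same layers were read from lists of their own, and limma called 0 of them. Of 17 enzymes and chaperones that process collagen, 11 were higher in swimming rats. Lox, which cross-links collagen, read 6.82, 6.79, 6.58, 6.997, 7.13 and 6.63 in swimming 1 to 6, against 6.59, 6.67, 6.59, 6.39, 6.54 and 6.44 in control 1 to 6. Its groups overlapped, since control 2 lay above swimming 3 and swimming 6, and its difference of 0.27 had an unadjusted p of 0.017 and an adjusted p of 0.986 (limma). Swimming 5 was the highest array for Lox, and these values include it. Plod3, a lysyl hydroxylase, differed by -0.32, and by -0.18 without swimming 5, its lowest array. Of 15 measured matrix proteases and inhibitors, 7 were higher in swimming rats, with Adamts1 differing by 0.18 and Mmp9, a gelatinase, by -0.24. Of 20 other matrix genes, 14 were higher, with Postn, which encodes periostin, differing by 0.35 and Lamb2, a laminin chain, by 0.32. Both were highest in swimming 5, and without it Postn differed by 0.19 and Lamb2 by 0.081.

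Of 19 measured genes of TGF-beta, PDGF and related signals, 9 were higher in swimming rats. Among them Grem1, a BMP antagonist made by gut fibroblasts and muscle, differed by 0.23 and Tgfbr1, a TGF-beta receptor, by -0.094. Grem1 read 7.11 in swimming 5 and at most 6.33 in any other array, and its difference was 0.034 without swimming 5. Of 21 further genes of smooth muscle contraction, 12 were higher, with Hspb6, a small heat shock protein of muscle, differing by 0.27 and Ppp1r12b, a subunit of myosin phosphatase, by -0.12. Hspb6 differed by 0.17 without swimming 5. Of 10 angiogenic ligands and oxygen sensors, 6 were higher, with Pgf, placental growth factor, differing by 0.10 and Epas1 by -0.20. Epas1 differed by -0.084 without swimming 5 and by -0.051 without control 5.

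Of 24 other endothelial genes, 15 were higher in swimming rats, with Aplnr, the apelin receptor, differing by 0.095. Aqp1, a water channel of capillary and lymphatic endothelium and of red cells, read 9.42, 10.46, 9.59, 9.87, 10.58 and 9.75 in swimming 1 to 6, against 8.70, 8.95, 9.43, 8.34, 8.46 and 8.26 in control 1 to 6. Its groups overlapped only where swimming 1 met control 3, its highest arrays were swimming 2 and swimming 5, and its difference of 1.20 had an adjusted p of 0.986 (limma). Red cell markers ran the other way: 8 of 8 were lower in swimming rats, with a median difference of -0.12 and the smallest at -0.014. Hbb differed by -1.14, the largest of the 8, and Hbb-b1 by -1.02, both with an adjusted p of 0.986 (limma). Swimming 5 was the lowest array for 4 of the 8. The red cell mean was 7.11 there, against 7.66 to 8.38 in the other arrays. Summed over the 8 markers, linear intensity ranged from 1187 to 7263 in swimming samples and from 5284 to 10491 in control samples. The part of blood in the sample in the vessel values was not tested.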

How the data were processed

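Messenger RNA was measured on single-colour Illumina bead arrays, 6 per group, grouped by sample title. The authors deposited raw average signals, a linear intensity per probe per the file headers, and a table of processed intensities, made by steps that no source used here gives; its array medians are all 16.0 and about 26.3% of values lie below 0. Neither table gives detection calls.

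Background was removed from the deposited raw intensity with normexp (offset 50), arrays were then quantile-normalized, and log2 was taken, so a fold change understates that of dim probes. Differences were tested with limma 3.58.1 in R 4.3.3, two-sided, with Benjamini-Hochberg adjustment over 22523 probes and calls at adjusted p under 0.05. All probes were kept. Intervals cover 95%. Arrays of a group whose log2 differences spread less over 4933 bright probes (mean above 8) than over 5147 dim probes (mean under 6.1) were averaged before the fit, which left 5 samples per group. p-values measure the spread between these samples.

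Of the probes, 13793 have 1 symbol in the platform annotation and 8730 have none here; 13752 matched the RefSeq gene table by identifier, and no symbol changed. Another 7 listed companion genes were found under an older symbol. The members, the lists of other genes and the tests were chosen with earlier results of these data known. Named were, per compartment, the 3 members with the highest mean and the 3 with the smallest unadjusted p, and up to 2 genes of each other list; further members have single values. The 4 segment genes given for swimming 5 were picked after their values were seen. Alternatives changed the background correction, scaling, deposited table, filter, variance model, samples averaged, samples left out and replicate number as a block. On simulated data for swimming against control with 22523 probes, the test recovered 68 of 100 probes changed by 1 log2 and 93 of 100 changed by 2, with 3 false calls. The changed probes were drawn from those brighter than the median probe, with noise independent between probes. These rates therefore do not carry over to dim members or to members that move together.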

Additional observations from a re-analysis of the deposited data

Results flagged for a closer look

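Of 68 group values tested, over the members, the compartment means and both groups, 15 had a sample far from the others of its group, where chance flags about 5%. The 68 are not independent, since members move together and the compartment means are built from them, so the 15 are not separate outliers. Most of these are the same 2 arrays. In swimming 1, Col1a2 read 11.01 (other swimming samples 9.57 to 9.74), Col5a2 7.07 (6.48 to 6.63), Dcn 8.89 (7.16 to 7.55) and Emcn 7.50 (6.66 to 6.84), and the matrix mean was 7.72 (7.18 to 7.28). In control 2, Col3a1 read 7.45 (other control samples 6.43 to 6.67), Col5a1 7.20 (6.39 to 6.59), Col6a1 8.89 (6.88 to 7.38), Pdgfra 6.84 (6.42 to 6.50), Des 9.52 (8.10 to 8.51) and Myl9 6.75 (6.16 to 6.30). Also in control 2, the smooth muscle mean was 8.03 (7.20 to 7.43) and the endothelial mean 6.57 (6.27 to 6.33). The remaining values are Col14a1 in swimming 5 at 6.76 (other swimming samples 6.26 to 6.40) and Esam in control 5 at 6.54 (other control samples 6.92 to 7.07), which is a low value.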

How the results depend on the processing

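Of the recomputed values, 640 of single genes and 303 of compartments or counts kept their direction and side of the threshold or stayed close, 13 turned their sign and 10 moved further. limma called 0 probes under every setting but the authors' processed intensities floored at 10, where it called 1, which is no member; 398 probes had an unadjusted p under 0.05 there. Under that table the compartment means above the median array were larger: 0.85 in swimming 1 and 0.90 in control 2 for matrix, 1.08 in swimming 1 and 1.12 in control 2 for muscle, and 0.67 in swimming 1, 0.63 in swimming 5 and 0.59 in control 2 for endothelium. The number of muscle genes higher in swimming rats was 1 to 4 as samples were left out, and of endothelial genes 3 where only brighter probes were kept, which leaves 3. Without swimming 5, swimming 3 and control 3, the difference was 0.10 for Fbln1, 0.14 for Des, -0.020 for Esam and -0.018 for Grem1. Des was 0.033 under median scaling. As single samples were left out, the difference ranged from -0.31 to 0.097 for Fbln1, from -0.062 to 0.36 for Vim, from -0.016 to 0.62 for Actg2, from -0.37 to 0.14 for Des, from -0.010 to 0.35 for Tagln and from -0.034 to 0.32 for Esam. Fbln1 was 0.0015 without swimming 4 and 6, and Des 0.035 without swimming 5. The cause of these turns was not tested. Taking all 12 arrays singly called 0 probes, with 1076 at an unadjusted p under 0.05. Same-numbered samples correlated at -0.045, -0.055, 0.71, 0.19 and 0.0032, so the numbers were not taken as pairs. With the replicate number as a block limma called 0 probes and 541 had an unadjusted p under 0.05. Of the 31 members, 8 were dimmer than the median probe, where background limits the measured differences.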
